A study of Mus musculus with 6 samples.

Results

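The genes described here are the fibroblast growth factor (FGF) ligand family, the FGF receptors and further families. Those are the dual-specificity phosphatases (Dusp), the Sprouty and Spred inhibitors and the Etv transcription factors. Some of their members are induced by the ERK kinase cascade below the receptors or feed back on it, and others do neither. The genes were picked out by symbol, under a rule set with earlier results of these data known, and 64 of the 23244 loci matched. All 64 were loci of a single symbol. Expression was measured by RNA sequencing of mouse embryonic stem (ES) cells, in 3 libraries of a line with a floxed Zscan10 that was not deleted (floxed control, with -Tx in the titles) and in 3 libraries of a subcloned Zscan10-null line (null). The line was built as an inducible Cre-loxP knockout. The labels name no strain, passage, culture medium or treatment. Whether each library had a culture of its own is not stated, and p-values then describe only how far these libraries vary, which may be technical. The null cells were subcloned, from how many clones is not stated, so clone and genotype cannot be told apart.

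FGF ligands bind receptor tyrosine kinases together with heparan sulfate, and the receptors signal through RAS, RAF, MEK and ERK. ERK activity switches on its own brakes, among them Sprouty and Spred proteins and several Dusp phosphatases, and the ETS factors of the PEA3 subfamily, so the transcripts of these genes are often read as a record of pathway output. In mouse ES cells FGF4 is the main ligand made by the cells themselves. It drives ERK and readies the cells to leave naive pluripotency, and in the early embryo it directs cells to primitive endoderm.

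Of the 64 genes, 35 had a mean of at least 1 FPKM (fragments scaled to transcript length and to library size) over the 6 libraries and were tested. In the null libraries 8 were higher and 8 were lower, with 19 not passing (limma on log2(FPKM + 1), Benjamini-Hochberg adjusted p of 0.05 over all tested loci). That is 45.7% of the tested members, against 25.2% of all 11480 tested loci, of which 12.8% were higher and 12.4% lower. The genes that rose were Spry2, Dusp9, Dusp5, Dusp12, Dusp27, Etv1, Etv4 and Fgfr1. Those that fell were Fgf1, Fgf15, Fgf17, Fgfrl1, Spry1, Spred2, Dusp16 and Etv3. The median log2 fold change was 0.05 over the members and -0.003 over all tested loci, and the median absolute change was 0.25 and 0.14. All 16 called members had groups that did not overlap, as did 7 of the 19 others. Together these are 65.7% of the tested members, against 44.1% of all tested loci.

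**Figure D1:**
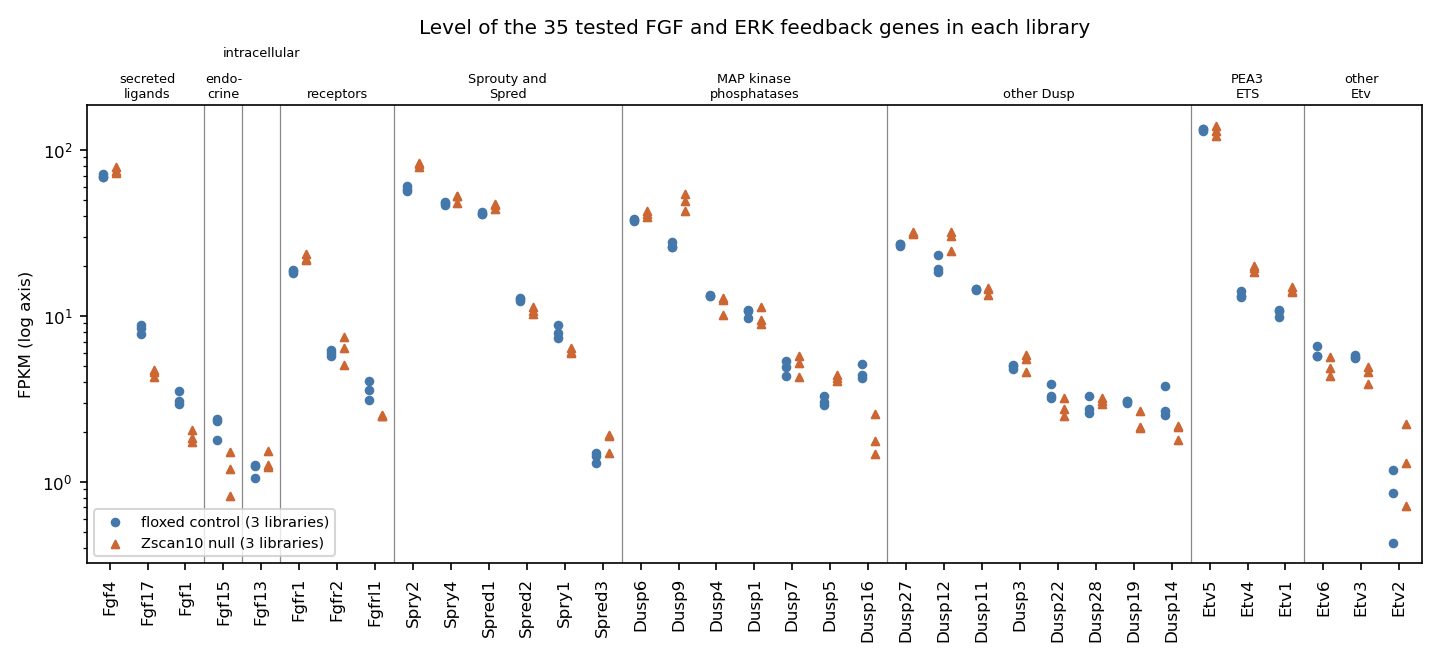
FPKM (log axis) of the 35 tested members in each library, ordered by role and level, with circles for the 3 floxed control and triangles for the 3 null libraries. Etv5, Fgf4 and Spry2 are the highest members, and the Spry2 and Dusp9 triangles lie above their circles.

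Zscan10 itself was at 44.2, 43.0 and 41.9 FPKM in the control libraries and at 5.49, 4.43 and 5.47 FPKM in the null libraries, or 11.9% of the control level (limma adjusted p = 2.88e-06). The 6 libraries had relative depths of 0.986 to 1.09, and FPKM totals of 664555 to 699401. The 9 ES cell marker genes were expressed in all libraries and summed to 4273 to 4360 FPKM in control and 3988 to 4316 FPKM in null libraries. Of these 0 were higher and 2 lower, Esrrb and Zfp42 (22.2%, against 25.2% of all tested loci). Among those that did not pass, Nanog and Utf1 had higher means in the null libraries (225 and 248 FPKM, and 114 and 118 FPKM). The null means of Pou5f1, Sox2, Klf4, Tdgf1 and Dppa5a were lower. The 8 primitive endoderm markers summed to 6.07 to 7.26 FPKM in control and 4.39 to 6.48 FPKM in null libraries. Of the 2 of them tested, Gata4 and Dab2, 0 passed limma and 1 had an unadjusted p under 0.05. Gata4 had means of 1.65 FPKM in control and 1.80 FPKM in null libraries, and Dab2 of 2.096 and 1.181 FPKM. Of the 6 markers under the minimum, the mean of Hnf4a was higher in the null libraries (0.519 and 0.876 FPKM), and the means of Gata6, Sox7, Sox17, Pdgfra and Foxa2 were lower. The 8 fibroblast markers, for feeder cells, summed to 4.999 to 5.89 and 4.41 to 5.32 FPKM, with Thy1 higher. Of their collagen genes Col3a1 overlapped between the groups and the other two did not, Col1a1 at 0.587 to 0.826 against 0.0540 to 0.107 FPKM and Col1a2 at 0.921 to 1.31 against 0.0492 to 0.111 FPKM, both below the minimum for the test. Of 3 trophoblast markers tested Tfap2c and Hand1 rose, from means of 17.97 to 25.7 and 0.577 to 1.79 FPKM (limma adjusted p = 0.00338 and 0.00206). Krt8, also tested, had means of 15.5 FPKM in control and 13.9 FPKM in null libraries and did not pass (0.497). Cdx2, Elf5 and Gata3 were under the minimum, with null means of 0.242, 0.0612 and 0.203 FPKM against control means of 0.155, 0.0191 and 0.180 FPKM. The 6 summed to 32.4 to 37.3 FPKM in control and 37.0 to 44.6 FPKM in null libraries. Of 3 neural markers tested Pax6 fell, from 9.96 to 7.85 FPKM (limma adjusted p = 0.0241). Nes had a higher null mean (4.35 FPKM in control and 4.75 FPKM in null libraries) and did not pass (0.564). Sox1 had a lower null mean and did not pass (0.472). Pax3, under the minimum, had means of 0.0610 FPKM in control and 0.135 FPKM in null libraries. The 4 summed to 15.2 to 16.8 FPKM in control and 12.7 to 14.97 FPKM in null libraries. The part of these cell types in the values below was not tested. In bulk RNA, fewer cells of a type and less RNA per cell cannot be told apart.

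Promoter sequence is shown for 5 of the genes that changed, to place short motifs beside the values, not all of which are known as ERK-responsive. RefSeq (GRCm38.p6, the assembly of mm10) gave a promoter window for 26 of the 35 tested members, and for 10 of the 16 that changed. The 250 bases before the annotated start were searched on both strands for the ETS site GGAAGT, the CArG box bound by serum response factor, the AP-1 site TGANTCA, the cyclic AMP response element TGACGTCA, the octamer ATTTGCAT and the E-box CACGTG. The letters of the ETS site and the CArG box were settled after the sequences were seen, and matches in the printed windows do not overlap one another. Sequences run 5' to 3', matches are in capitals, and the Dusp5 window stops before its annotated 5' untranslated region.
Spry2 (chr14:105896820-105897069, minus strand): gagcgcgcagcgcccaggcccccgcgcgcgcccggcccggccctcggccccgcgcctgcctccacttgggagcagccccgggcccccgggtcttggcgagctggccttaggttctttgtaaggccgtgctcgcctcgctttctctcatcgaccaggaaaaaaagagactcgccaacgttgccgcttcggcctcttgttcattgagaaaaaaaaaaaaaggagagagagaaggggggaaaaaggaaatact
Etv1 (chr12:38779832-38780081, plus strand): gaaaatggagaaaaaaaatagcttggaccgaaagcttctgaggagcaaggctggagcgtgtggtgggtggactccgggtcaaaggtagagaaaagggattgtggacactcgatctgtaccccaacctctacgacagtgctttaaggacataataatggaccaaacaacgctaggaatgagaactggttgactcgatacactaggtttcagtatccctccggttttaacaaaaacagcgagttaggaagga
Dusp5 (chr19:53528895-53529108, plus strand): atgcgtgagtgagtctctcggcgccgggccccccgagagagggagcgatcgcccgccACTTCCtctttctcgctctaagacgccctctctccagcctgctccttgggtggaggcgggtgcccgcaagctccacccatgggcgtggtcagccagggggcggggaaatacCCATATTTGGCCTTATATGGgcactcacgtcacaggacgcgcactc
Fgfrl1 (chr5:108693979-108694228, plus strand): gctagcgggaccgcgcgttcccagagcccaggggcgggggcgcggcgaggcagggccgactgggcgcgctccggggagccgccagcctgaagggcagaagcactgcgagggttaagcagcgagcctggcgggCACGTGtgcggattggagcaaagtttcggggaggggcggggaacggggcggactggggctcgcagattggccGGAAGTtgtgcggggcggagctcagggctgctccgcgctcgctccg
Dusp16 (chr6:134792629-134792878, minus strand): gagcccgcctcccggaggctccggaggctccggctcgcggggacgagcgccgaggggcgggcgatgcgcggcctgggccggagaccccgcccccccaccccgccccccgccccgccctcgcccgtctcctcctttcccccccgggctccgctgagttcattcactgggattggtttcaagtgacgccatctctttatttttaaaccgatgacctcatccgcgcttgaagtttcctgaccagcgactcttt
The Dusp16 window lies within the RefSeq span of Dusp16, and those of Etv1 and Fgfrl1 within the GENCODE spans of their genes, outside annotated exons, while the Dusp5 window is covered by an exon of the antisense transcript AC137853.2. The Dusp5 window held 2 CArG boxes side by side, starting 82 and 72 bases before the start, and an ETS site at 193 bases. CArG boxes were present in 1.47% of all 32851 promoter windows. Among the windows of tested members Dusp5 was the 1 with a CArG box. Fgfrl1 held an ETS site 46 bases and an E-box 118 bases before its start, and these motifs were present in 19.7% and 6.02% of all windows. The Spry2, Etv1 and Dusp16 windows held 0 matches to the letters searched. Of the 31 windows of tested members 6 (19.4%) held an ETS site, those of Dusp5, Etv3, Etv5, Fgf13, Fgfrl1 and Spred2. An AP-1 site was found in 6.75%, a cyclic AMP response element in 1.55% and an octamer in 1.60% of all windows, and in 1, 1 and 0 windows of tested members. The E-box was found in 3 windows of tested members (9.68%), those of Dusp1, Etv3 and Fgfrl1.

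Among the ligands, Fgf4 stayed by far the most abundant and 3 minor ligands fell. Fgf4 was at 71.7, 68.5 and 68.6 FPKM in the controls and at 78.9, 72.8 and 74.7 FPKM in null libraries. Every null library lay above every control library, by a small margin. The log2 fold change was 0.11 with a 95% interval of 0.01 to 0.22, and the change did not pass (limma adjusted p = 0.0916). Fgf4 made up 82.1% to 83% of the summed FPKM of the 15 secreted ligands in control and 88.6% to 89.96% in null libraries. The sum itself was 84.2 ± 1.95 and 84.6 ± 2.97 FPKM (mean ± SD, n = 3 each).

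Fgf17, a ligand of the FGF8 subfamily, was at 8.42, 8.77 and 7.72 FPKM in the controls and at 4.595, 4.29 and 4.70 FPKM in null libraries. The null libraries lay close together at 0.546 times the control mean. The log2 fold change was -0.75 (SE 0.07, limma adjusted p = 0.000891). Fgf1, which is released without a classical signal peptide and binds every FGF receptor, was at 2.94, 3.50 and 3.08 FPKM in the controls and at 1.84, 2.04 and 1.75 FPKM in null libraries. The fall to 0.590 times the control level was seen in each null library (log2 fold change -0.54, SE 0.09, limma adjusted p = 0.00615). Fgf1 lies on chromosome 18 (mm10, 38838672 to 38929470) within the antisense gene Arhgap26, which was at 0.715 to 0.942 FPKM in control and 0.378 to 0.569 FPKM in null libraries. No source states strand-aware counting, so reads of the pair cannot be told apart. The part of the fibroblast markers above in the Fgf1 values was not tested.

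Fgf15, the mouse counterpart of human FGF19 and an endocrine FGF of the bile acid circuit, was at 2.40, 1.79 and 2.33 FPKM in the controls and at 1.52, 0.822 and 1.199 FPKM in null libraries. All null libraries lay lower, with a log2 fold change of -0.55 (SE 0.15, limma adjusted p = 0.0316). The adjusted p rose to 0.0960 without control replicate 1, 0.0932 without control replicate 3, 0.0736 without null replicate 2 and 0.0727 without null replicate 3. Fgf15 is the neighbour of Fgf4 on chromosome 7 (mm10, 144896532 to 144900953), 31.3 kb away, with Fgf3 18.0 kb to the other side of Fgf4. Fgf3, a ligand of the early embryo, was at 0.729, 0.669 and 0.732 FPKM in the controls and at 0.616, 0.555 and 0.486 FPKM in null libraries, under the minimum for the test. In this cluster of 3 ligand genes the means of the outer genes were thus lower in the null libraries and the mean of Fgf4 was not, and the difference between the genes was not tested. The last tested member of the ligand family was Fgf13, an intracellular FGF homologous factor that does not act on receptors from outside the cell, at 1.05 to 1.26 FPKM in control and 1.22 to 1.53 FPKM in null libraries (limma adjusted p = 0.527).

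The remaining ligands were near the limit of detection. Fgf6 and Fgf20 were listed at 0 in all 6 libraries, as were Dusp21 and Spry3 of the other families. For Fgf2, Fgf7, Fgf8, Fgf9, Fgf11, Fgf12, Fgf14, Fgf22 and Fgf23 and for Dusp15 and Dusp23, each value, once corrected for depth, was a whole multiple (within 2%) of the lowest one, up to 4 times it. Fgf8, for example, was at 0.137 to 0.152 FPKM in 5 libraries and at 0 in control replicate 2, a single step in each. Such values rest on very few fragments. Fgf16 and Fgf21 were above 0 in 1 library each, and Dusp13 in 2. Fgf10, at 0.301 to 0.932 FPKM, Fgf18, at 0.250 to 0.877 FPKM, Dusp18, at 0.541 to 1.19 FPKM, and Dusp26, at 0.473 to 1.14 FPKM, overlapped between the groups. Fgf5, a marker of the primed epiblast, was at 0.365, 0.527 and 0.419 FPKM in the controls and at 0.582, 1.05 and 0.731 FPKM in null libraries, so each null library lay above the controls at a very low level. Without a minimum its limma adjusted p was 0.111. Of the 25 members under 1 FPKM with a value above 0, 0 passed limma without a minimum, against 13.9% of all 18476 loci in that fit. Those loci include the abundant ones. Without adjustment 4 of the 25 had a p under 0.05, Fgf2, Fgf5, Fgf18 and Fgf22, and the share over all loci was not counted. Beside Fgf5, the primed epiblast markers Dnmt3b and Pou3f1 rose, 2 of 4 tested, and the list summed to 126 to 134 FPKM in control and 153 to 172 FPKM in null libraries, a difference no larger than that of Dnmt3b alone (means of 79.4 and 115.8 FPKM). Otx2 and Zic2, which did not pass, had lower means in the null libraries (24.9 and 24.1 FPKM, and 23.6 and 20.9 FPKM), as did Sox3, under the minimum (0.595 and 0.294 FPKM). Their part in the Fgf5 values was not tested.

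At the receptor level Fgfr1 rose modestly and the decoy-like receptor Fgfrl1 fell. Fgfr1, the main FGF receptor of ES cells, was at 18.9, 18.1 and 18.6 FPKM in the controls and at 21.7, 22.01 and 23.7 FPKM in null libraries. The null libraries were all higher, 1.21-fold on average (log2 fold change 0.26, SE 0.05, limma adjusted p = 0.00993). It accounted for 62.9% to 64.7% of the summed FPKM of the 5 receptor genes in control and 68.1% to 72.5% in null libraries. Fgfr2, a receptor of the primitive endoderm, was at 6.21, 5.74 and 5.99 FPKM in the controls and at 5.03, 6.42 and 7.50 FPKM in null libraries. The null libraries spread to both sides of the controls, and the interval of the log2 fold change ran from -0.23 to 0.34 (limma adjusted p = 0.773). Fgfrl1, a receptor without a tyrosine kinase domain, was at 3.09, 4.04 and 3.59 FPKM in the controls and at 2.48, 2.50 and 2.53 FPKM in null libraries. The null values were nearly equal and all lower (log2 fold change -0.38, SE 0.10, limma adjusted p = 0.0265). This call was lost without control replicate 2 or 3 (0.0859 and 0.0750) and without null replicate 1, 2 or 3 (0.0530, 0.0648 and 0.0641). Fgfr3 and Fgfr4 stayed under 1 FPKM, at 0.320 to 0.615 and 0.262 to 0.596 FPKM.

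**Figure D2:**
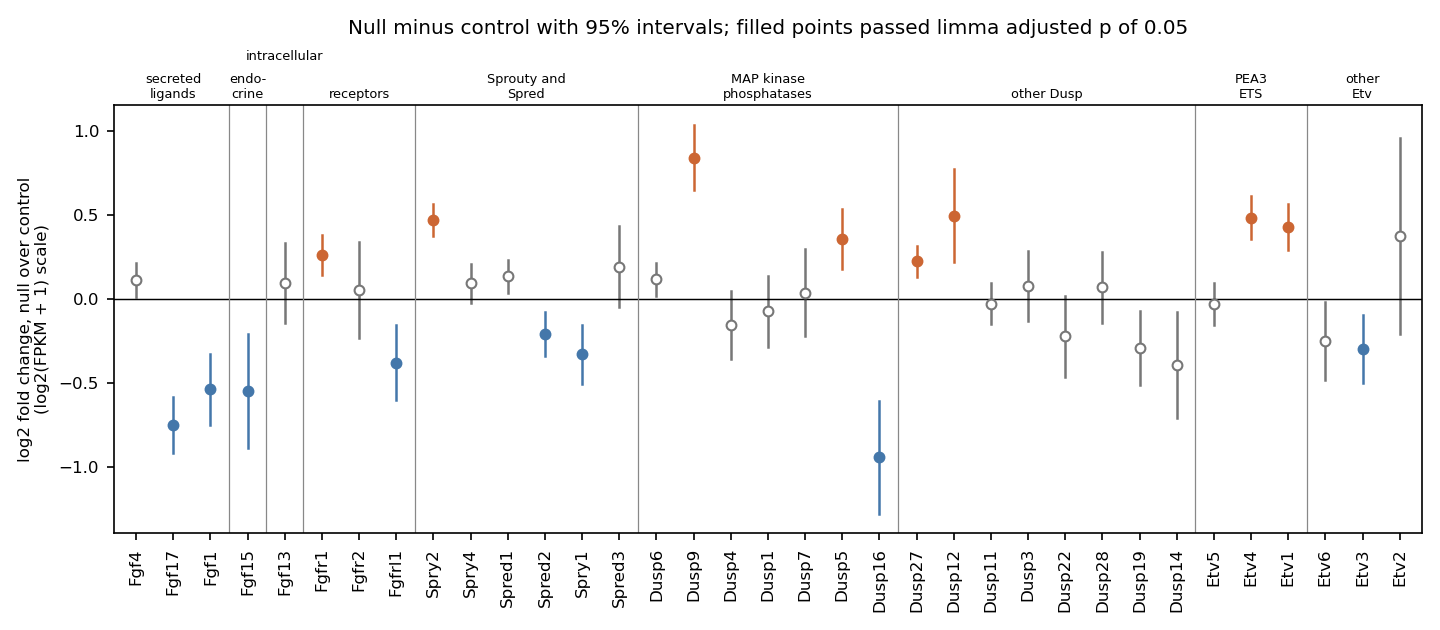
Log2 fold change of null over control on the log2(FPKM + 1) scale for the 35 tested members, with 95% intervals from limma, ordered as in the plot of levels. Filled points passed an adjusted p of 0.05, and they lie on both sides of 0 within the receptors, the Sprouty and Spred inhibitors and the phosphatases.

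The Sprouty and Spred inhibitors split. Spry2, which restrains RAS-ERK signalling below receptor tyrosine kinases and lies on chromosome 14 (mm10, 105891947 to 105896819), was at 56.9, 60.2 and 57.7 FPKM in the controls and at 83.1, 81.8 and 78.7 FPKM in null libraries. Every null library was well above every control, 1.39-fold on average (log2 fold change 0.47, SE 0.04, limma adjusted p = 0.000594). Spry4, a close relative with the same role, was at 47.8, 48.8 and 46.6 FPKM in the controls and at 52.5, 53.0 and 47.9 FPKM in null libraries. One null library fell among the controls, and the interval of the log2 fold change, -0.02 to 0.21, lies below that of Spry2, 0.38 to 0.57, a difference that was not tested. Spry1 went the other way, from 7.34, 7.89 and 8.79 FPKM in control to 6.01, 6.38 and 6.09 FPKM in null libraries. All its null libraries were lower (log2 fold change -0.33, SE 0.08, limma adjusted p = 0.0193), a call that was lost without control replicate 2 or 3 (0.0583 and 0.0575) or null replicate 3 (0.0557). Spry2 thus ranked first of the family in both groups, and its share of the summed FPKM of the family was 34.01% to 34.8% in control and 40.8% to 41.7% in null libraries.

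Spred1, which brings neurofibromin to the membrane to switch RAS off, was at 41.3, 42.5 and 41.0 FPKM in the controls and at 47.2, 46.3 and 43.9 FPKM in null libraries. The null libraries were all higher, but the change did not pass (log2 fold change 0.14, 95% interval 0.04 to 0.24, limma adjusted p = 0.0528). It passed with median centring (0.0338), with a minimum of 5 FPKM (0.0491) and without null replicate 3 (0.0448). Spred2, with the same mode of action, fell from 12.6, 12.2 and 12.8 FPKM to 10.7, 11.3 and 10.2 FPKM (log2 fold change -0.21, SE 0.06, limma adjusted p = 0.0335). Spred2 lies on chromosome 11, whose 940 tested loci had a median log2 fold change of -0.12. With each chromosome centred on its own median the log2 fold change of Spred2 was -0.09 (limma adjusted p = 0.281). Leaving out a control library in turn gave 0.0965, 0.0753 and 0.0990 and leaving out null replicate 1 or 3 gave 0.0610 and 0.0935, and the call was kept without null replicate 2. Spred3, the lowest of the 3, was at 1.31 to 1.498 FPKM in control and 1.48 to 1.91 FPKM in null libraries (limma adjusted p = 0.205).

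Among the MAP kinase phosphatases the X-linked Dusp9 rose most of the members. DUSP9 removes phosphate from ERK. Dusp9 (mm10, chromosome X, 73639389 to 73643514) was at 27.99, 25.9 and 26.1 FPKM in the controls and at 42.8, 54.2 and 49.5 FPKM in null libraries. The lowest null library stood far above the highest control, and the mean was 1.83-fold higher (log2 fold change 0.84, SE 0.08, limma adjusted p = 0.000948). The 400 tested loci of chromosome X had a median log2 fold change of 0.01, and Dusp9 kept its call with the chromosomes centred.

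Dusp6, a cytoplasmic phosphatase specific to ERK and a standard readout of the pathway, was at 37.1, 38.1 and 38.0 FPKM in the controls and at 39.5, 41.1 and 42.6 FPKM in null libraries. Null libraries were all slightly higher, without passing (log2 fold change 0.12, 95% interval 0.02 to 0.22, limma adjusted p = 0.0769). It passed with median centring (0.0464) and without null replicate 1 (0.0463). In each control library Dusp6 was thus the highest MAP kinase phosphatase and Dusp9 the next, and in each null library Dusp9 was above Dusp6. The 10 genes of this class summed to 101 ± 0.188 FPKM in control and 124 ± 8.26 FPKM in null libraries (mean ± SD, n = 3 each).

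Dusp5, a nuclear ERK phosphatase that ERK signalling induces, was at 2.91, 3.02 and 3.30 FPKM in the controls and at 4.23, 4.395 and 4.05 FPKM in null libraries. All null libraries were higher, 1.37-fold on average (log2 fold change 0.36, SE 0.08, limma adjusted p = 0.0145), and the call was narrowly lost without control replicate 1 or 2 (0.0531 and 0.0520). This is the gene whose promoter window held the paired CArG boxes. The antisense transcript over its start, AC137853.2, was not analysed here.

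Dusp16, a phosphatase with a preference for JNK and p38 over ERK, fell the most of the tested members. It was at 4.2, 4.39 and 5.10 FPKM in the controls and at 2.55, 1.75 and 1.46 FPKM in null libraries. Each null library was far below the controls, and the mean was 0.421 times the control mean (log2 fold change -0.94, SE 0.14, limma adjusted p = 0.00419). The null libraries also differed among themselves, the first being the highest. Dusp4, a nuclear phosphatase induced by ERK, was at 13.3, 13.2 and 13.1 FPKM in the controls and at 10.1, 12.5 and 12.8 FPKM in null libraries. All null libraries were lower, null replicate 1 most clearly and the others near the controls, and Dusp4 did not pass (limma adjusted p = 0.224). Without null replicate 1 the log2 fold change went from -0.16 to -0.06. Dusp1, an immediate-early phosphatase of several MAP kinases, was at 10.8, 10.7 and 9.70 FPKM in the controls and at 8.89, 11.2 and 9.46 FPKM in null libraries, and the cytoplasmic ERK phosphatase Dusp7 at 4.34 to 5.36 and 4.26 to 5.69 FPKM. Both overlapped between the groups. Dusp2, Dusp8 and Dusp10 stayed under 1 FPKM in every library.

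The other dual-specificity phosphatases, all Dusp genes outside the class above, act on diverse substrates. Of 8 tested, 2 rose and 0 fell, or 25% against 25.2% of all tested loci, with 4 at an unadjusted p under 0.05, as were 4502 of the 11480 loci. Dusp27, a relative without catalytic activity known from muscle, was at 27.1, 27.1 and 26.5 FPKM in the controls and at 31.3, 32.1 and 31.4 FPKM in null libraries. Both groups were tight, so the small 1.17-fold rise passed (log2 fold change 0.22, SE 0.04, limma adjusted p = 0.00666). Dusp12, an atypical phosphatase with a zinc-binding domain, was at 23.2, 19.0 and 18.2 FPKM in the controls and at 24.5, 30.1 and 32.0 FPKM in null libraries. The lowest null library was just above the highest control (log2 fold change 0.50, SE 0.12, limma adjusted p = 0.0220), and the call was lost without control replicate 2 or 3 (0.0740 and 0.0700) or null replicate 2 or 3 (0.0661 and 0.0671), and with a replicate block (0.0653). Dusp27 and Dusp12 both lie on chromosome 1, whose median log2 fold change was 0.02. The RNA phosphatase Dusp11 was at 14.5, 14.4 and 14.4 FPKM in the controls and at 14.6, 13.4 and 14.5 FPKM in null libraries, without a gap between the groups. Dusp14 and Dusp19 had null libraries that were all lower without passing (limma adjusted p = 0.0717 and 0.0580). Dusp14 lies on chromosome 11, and with the chromosomes centred its log2 fold change went from -0.39 to -0.27 (limma adjusted p = 0.185). Dusp19 passed without a variance trend (0.0370) and without null replicate 3 (0.0338), and Dusp22 and Dusp28 overlapped between the groups. Dusp19 lies on the same strand within the span of Nup35, which was at 29.2 to 31.1 FPKM in control and 31.1 to 35.2 FPKM in null libraries. Dusp3, a small phosphatase, was at 4.97, 4.78 and 5.02 FPKM in the controls and at 4.55, 5.48 and 5.78 FPKM in null libraries, which also overlap.

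Of the 3 ETS factors of the PEA3 subfamily, transcription factors that FGF signalling induces, the 2 lower-expressed ones rose and the most abundant did not. Etv4 was at 13.2, 14.2 and 13.04 FPKM in the controls and at 18.5, 19.9 and 19.4 FPKM in null libraries. The groups were well separated, with a 1.43-fold difference (log2 fold change 0.49, SE 0.05, limma adjusted p = 0.00146). Etv4 lies on chromosome 11 (mm10, 101769747 to 101785310), where 57 loci were higher and 260 lower, and with the chromosomes centred its log2 fold change was 0.60. Etv1 was at 9.79, 10.8 and 10.7 FPKM in the controls and at 13.99, 14.2 and 14.95 FPKM in null libraries. Again every null library was higher, 1.38-fold on average (log2 fold change 0.43, SE 0.06, limma adjusted p = 0.00277). Etv5, the highest of all the members, was at 133, 133 and 130 FPKM in the controls and at 139, 130 and 120 FPKM in null libraries. The null libraries lay on both sides of the controls, and the interval of the log2 fold change, -0.15 to 0.09, lies below those of Etv4 (0.36 to 0.61) and Etv1 (0.29 to 0.57). The difference between these genes was not tested.

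The other Etv factors are not known as FGF readouts. Etv3, an ETS repressor, was at 5.58, 5.77 and 5.65 FPKM in the controls and at 4.6, 4.88 and 3.86 FPKM in null libraries. All null libraries were lower, but the call was the weakest of the 16 (log2 fold change -0.30, SE 0.09, limma adjusted p = 0.0433): it held in 4 of 15 alternatives, and was lost without any control replicate (0.0980, 0.122 and 0.103) and without null replicate 1 or 3 (0.0607 and 0.0950). Etv6, another repressor, was at 5.71, 5.76 and 6.57 FPKM in the controls and at 5.63, 4.32 and 4.81 FPKM in null libraries (limma adjusted p = 0.109). It passed without null replicate 1 (0.0413). Etv2, a factor of blood and vessel precursors, was at 0.429 to 1.178 and 0.713 to 2.22 FPKM (limma adjusted p = 0.303).

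**Figure D3:**
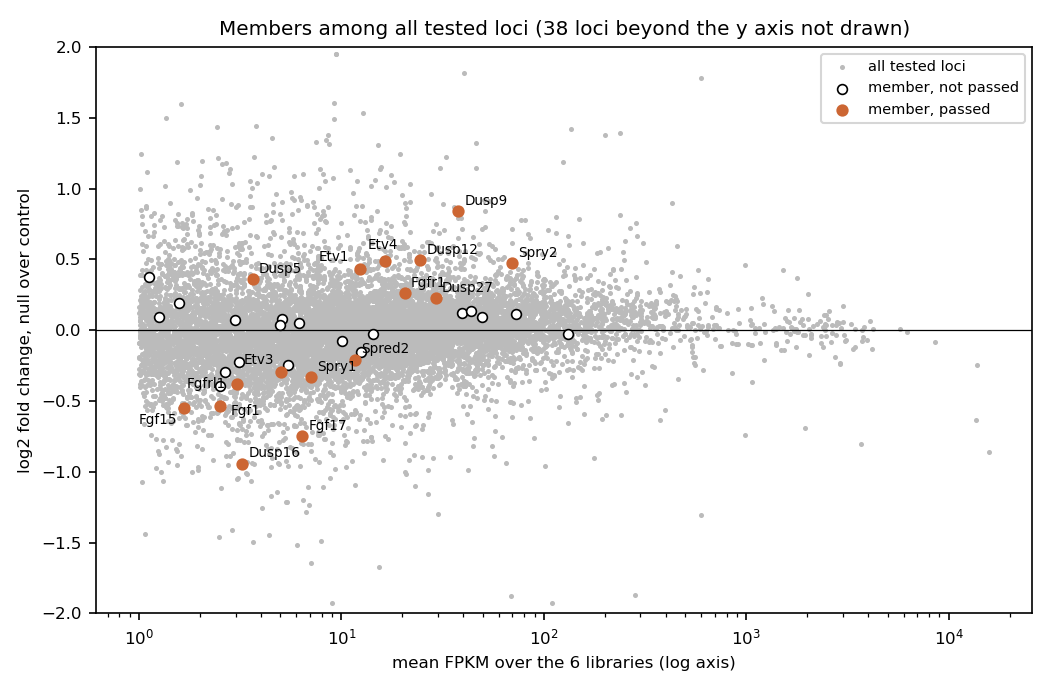
Mean FPKM over the 6 libraries (log axis) against log2 fold change for the tested loci in grey, with tested members as open circles and the 16 called members filled and named. Of the 11480 tested loci, 38 lie beyond the y axis and are not drawn. The called members that rose have means of 3.65 to 69.7 FPKM and those that fell 1.67 to 11.6 FPKM.

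The members that rose were on the whole more abundant than those that fell. Their median mean level was 22.5 FPKM, against 4.15 FPKM for the members that fell. Over all tested loci the same order was seen, with 22.6 FPKM for the 1468 higher and 10.3 FPKM for the 1426 lower loci. Among members that lie near each other, Fgf1 fell and Spry4, 237.3 kb away, did not pass, Etv4 rose and Dusp3, 185.8 kb away, did not pass, and Dusp16 fell and Etv6, 445.3 kb away, did not pass.

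Outside the members, 65 other genes of the pathway were found of 67 listed, and 54 were tested, of which 7 rose and 10 fell (31.5%, against 25.2% of all tested loci). The adaptors and the RAS-ERK cascade, 26 tested, had 4 higher and 3 lower (26.9%, near the share of all tested loci), and their median change was -0.04 on the log2 scale. Rps6ka2, a kinase that ERK activates, fell from 10.4 to 6.40 FPKM (limma adjusted p = 0.00133). The adaptor Shc1 rose from 26.7 to 34.4 FPKM (0.0100), and Braf, a RAF kinase, from 9.88 to 13.7 FPKM (0.0411). The Braf call was lost without control replicate 1, 2 or 3 (0.0787, 0.126 and 0.0794) and without null replicate 2 or 3 (0.114 and 0.117).

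Of 10 tested co-receptors and modulators 2 rose and 4 fell (60%, against the same 25.2%). Sdc4, a heparan sulfate proteoglycan, rose from 37.9, 35.1 and 38.2 FPKM in control to 70.8, 67.1 and 73.6 FPKM in null libraries. This was a change in every library (log2 fold change 0.91, SE 0.05, limma adjusted p = 0.000116). Sdc1, of the same family, rose from a mean of 8.59 to 11.1 FPKM (0.0166), a call lost without control replicate 1 or 2 (0.0519 and 0.0607) or null replicate 3 (0.0514). Gpc3, a glypican on chromosome X, fell from 15.5, 14.6 and 15.1 FPKM to 8.599, 6.38 and 7.56 FPKM (log2 fold change -0.93, SE 0.10, limma adjusted p = 0.00113). Dusp9 and Gpc3 are thus X-linked genes that changed in opposite directions.

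Il17rd, an inhibitor of FGF receptor signalling that belongs to the same feedback circuit as the Sprouty genes, fell from 15.2, 15.7 and 14.97 FPKM to 11.41, 11.44 and 11.43 FPKM. The null values were nearly equal (log2 fold change -0.39, limma adjusted p = 0.00187). Il17rd went opposite to Spry2 and the same way as Spry1 and Spred2. Flrt3, a membrane protein that binds FGF receptors, fell from a mean of 2.33 to 1.09 FPKM (limma adjusted p = 0.0115), and Cdh2, N-cadherin, from 2.39 to 1.57 FPKM (0.0351). The Cdh2 call was lost without each of the 6 libraries, at 0.0504 to 0.101. Of 9 heparan sulfate enzymes 0 rose and 3 fell (33.3%, against 25.2% of all tested loci), with 6 at an unadjusted p under 0.05. Sulf1 and Sulf2, the sulfatases that remove sulfate from heparan sulfate outside the cell, both fell, Sulf1 from 21.1 to 15.2 FPKM (0.00566) and Sulf2 from 60.7 to 45.3 FPKM (0.00120). Of 9 tested ERK-responsive genes 1 rose and 0 fell (11.1%, against 25.2% of all tested loci), with 3 at an unadjusted p under 0.05. Over all tested loci 4502 of 11480 had such a p. The gene that rose was Myc, from a mean of 10.99 to 15.1 FPKM (limma adjusted p = 0.0129). The immediate-early gene Egr1 was at means of 2.14 and 1.21 FPKM (0.0518), and Lif, the cytokine that sustains naive ES cells, at 1.099 and 1.68 FPKM (0.0516), so 2 genes of the list in opposite directions lay just short of the threshold. The cyclin gene Ccnd1 had means of 26.5 and 27.1 FPKM, with null libraries from 20.1 to 32.0 FPKM.

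**Figure D4:**
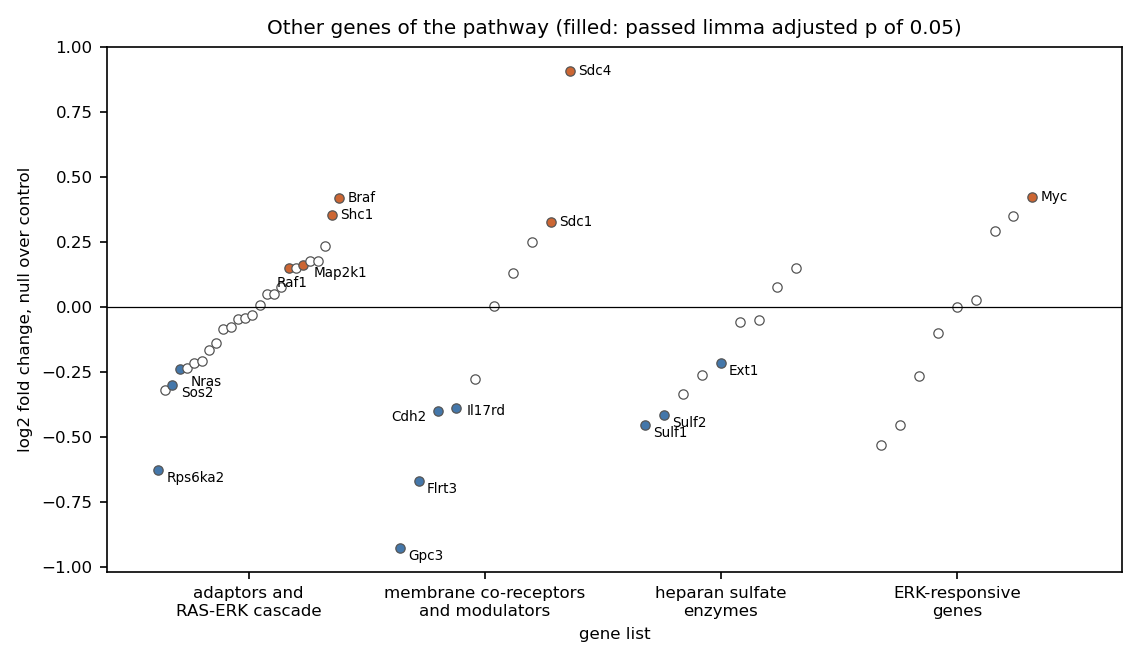
Log2 fold change of null over control for the 54 tested genes of the pathway that are not members, in 4 lists, with each point 1 gene and filled points past an adjusted p of 0.05. Sdc4 and Gpc3 lie farthest from 0, on opposite sides, and Myc is the filled point among the ERK-responsive genes.

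**Figure D5:**
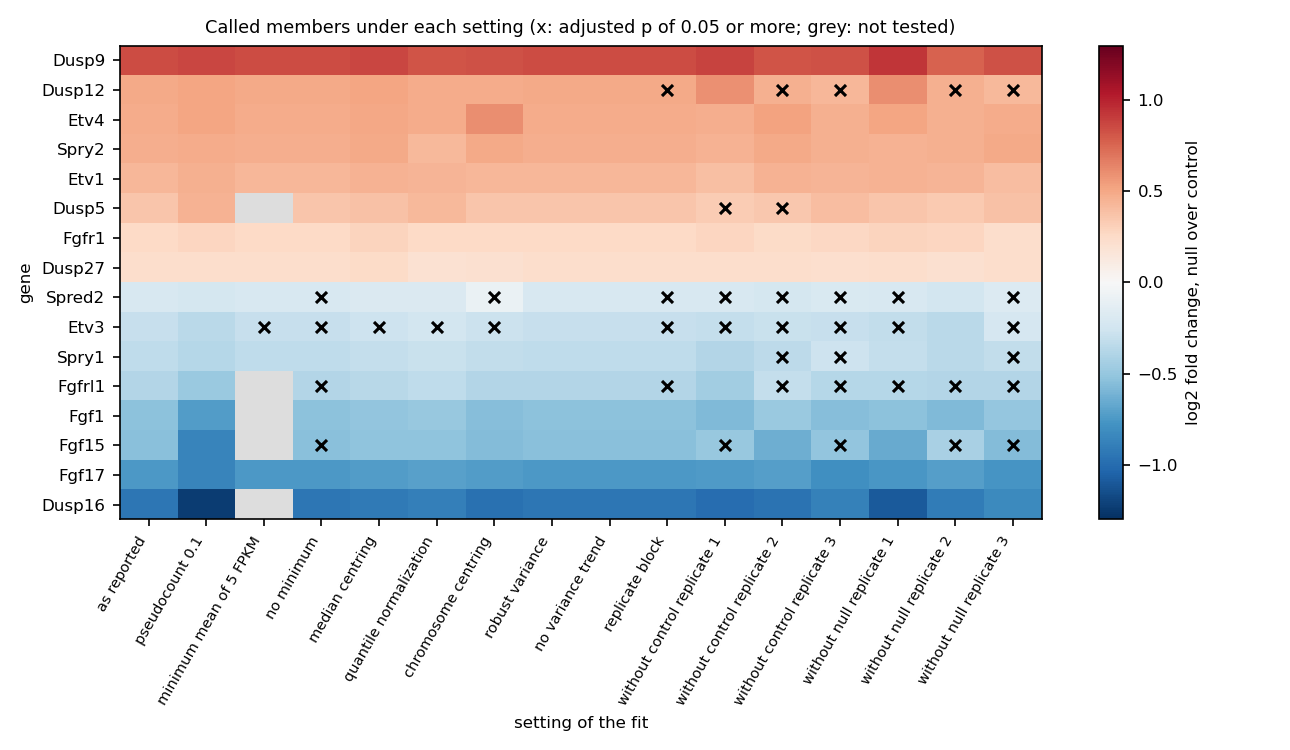
Log2 fold change (colour) of the 16 called members under the reported setting and each of 15 alternatives, with a cross where the adjusted p was 0.05 or more and grey where the gene was not tested. The rows of Dusp9, Etv4, Spry2, Etv1, Fgfr1, Dusp27, Fgf1, Fgf17 and Dusp16 hold no cross.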

How the data were processed

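Ribosomal RNA was depleted from total RNA before sequencing, per the labels' protocols. Trim Galore, FastQC, TopHat and Cuffdiff are listed in the submitters' processing notes with the build mm10, without versions or order. The authors deposited 1 file a library with a single value for each locus, taken as FPKM because no header states the unit: the values are not whole, and their totals differ between libraries. Scaling between libraries and the use of strand are not stated. Depth was read from the steps between low values (under 0.15 FPKM).

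The 6 libraries were grouped by title, and log2(FPKM + 1) was fitted with limma 3.58.1 in R 4.3.3 (eBayes with a mean-variance trend) over loci whose mean reached 1 FPKM. Fold changes on this scale understate those of low genes; ratios are of group means. Members that passed or had a mean of at least 5 FPKM are given by library and the rest by range or count, with the 12 largest changes among other pathway genes that passed; Egr1, Lif and Ccnd1 were named after their values were seen. The members and lists were chosen with earlier results of these data known. Coordinates and promoters are RefSeq GRCm38.p6, and overlaps GENCODE M21. The fit was tested on simulated data. Alternatives changed the pseudocount, minimum, scaling, variance, a replicate block and each library in turn.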

Additional observations from a re-analysis of the deposited data

How the results depend on the processing

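Of the 16 called members, 9 kept their call in every alternative that tested them, and 0 changed direction in the 15 alternatives. With each library left out in turn, the count of higher members ran from 6 to 9 and that of lower members from 3 to 6. Over the same fits the counts were 930 to 1472 higher and 789 to 1442 lower over all loci, and 3 to 7 higher and 7 to 10 lower among the other genes of the pathway. The count of lower members was 3 with a minimum of 5 FPKM, 4 without a minimum and 5 with a replicate block. The minimum of 5 FPKM left 5 called members untested: Fgf1, Fgf15, Fgfrl1 and Dusp16, which fell, and Dusp5, which rose. Etv3 was tested there and lost its call (limma adjusted p = 0.0601). Deviations of same-numbered libraries correlated at -0.00242, 0.108 and 0.0527, and control replicate 1 correlated best with null replicate 2, so the numbers were not taken to pair the libraries. With the block, 12 of the 16 calls remained, and those of Dusp12, Spred2, Etv3 and Fgfrl1 were lost. Read depth is unknown beyond the relative values.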
